A study of Mus musculus with 6 samples.

Results

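The genes described here are 33 genes of blood coagulation and fibrinolysis, chosen by name as a set that covers the clotting factors, their cofactors, their inhibitors, the plasmin system and the vitamin K cycle. The choice was made with earlier results of these data known. They were looked up among the 47243 gene names that had a single usable entry for every mouse in liver RNA-Seq of 6 house mice (Mus musculus). Of the 33 genes, 32 were listed once for every mouse and all of these 32 were among the 18628 genes that passed the filter on low values and were tested. The remaining gene, Ggcx, was listed under a pair of entries and is described apart.

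The laboratory group (C57BL/6 mice) held 3 males of this inbred strain, bought from a supplier as adults of a narrow age band and killed on arrival. The wild group held 3 adults that had been trapped alive and then kept for some months under a natural light cycle. Wild mouse 1 was male and wild mice 2 and 3 were female. By the paper, wild mice 1 and 2 came from Murrumbateman and wild mouse 3 from Yass, so site also differed within the group. The labels name no transgene and no treatment, and every library came from fresh-frozen bulk liver and was made from polyA RNA with a stranded kit. Strain, life history, housing and, in part, sex changed together between the groups, so their parts in any difference cannot be told apart, and the laboratory mice stand for 1 inbred strain. The number of reads behind each value is unknown because the values are FPKM (fragments scaled to transcript length and library size) and zFPKM, for which the peak of a mouse's own distribution of log2 FPKM is subtracted and the result is divided by an SD fitted to that distribution.

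In the coagulation cascade, proteases made by the liver circulate as inactive precursors and activate each other in turn on membrane surfaces, with cofactors that speed each step, until thrombin converts fibrinogen to fibrin and factor XIII crosslinks the clot. Several of these proteases, and proteins C, S and Z, need gamma-carboxylation, a modification that depends on vitamin K. Serpins and the protein C pathway restrain the cascade, and plasmin later dissolves the fibrin. Hepatocytes make most of these proteins, which is why they serve as readouts of liver synthesis, whereas factor VIII, von Willebrand factor and thrombomodulin are made mainly by endothelial cells.

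The tissue label was checked against its markers. All 8 usable markers of hepatocytes out of 10 listed were present in every mouse, with a summed FPKM of 27600 to 37662 in C57BL/6 mice and 19826 to 21901 in wild mice. Of these 8 markers, 4 were higher in wild mice and 2 in laboratory mice. The sum came mostly from the 2 that were higher in laboratory mice, Apoa1 and Ttr, so it does not stand for the list as a whole. The coagulation genes themselves were abundant, since 13 of the 32 had a mean zFPKM above 2, the study's class of high expression, in laboratory mice and 16 did in wild mice. Laboratory mouse 3 and wild mouse 1 stood apart in scale, with modes of log2 FPKM of 2.12 and 2.51, against 0.491 to 1.77 in the other mice, and SDs of 2.51 and 2.69, against 2.89 to 3.12.

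On the zFPKM scale 11 of the 32 tested genes differed between laboratory and wild mice at a limma adjusted p below 0.05. Of these, 9 were higher in wild mice (Fga, F13b, F7, F5, Fgg, F2, Serpind1, Serpinf2 and Plg) and 2 were higher in laboratory mice (Klkb1 and Proc). Over all 18628 tested genes 14.5% differed, 7.28% being higher in wild mice and 7.17% higher in laboratory mice. The median difference, coded as laboratory minus wild throughout, was -0.19 over the 32 genes and 0.005 over all tested genes. Because the genes were measured in whole liver, fewer cells of a type and less RNA per cell cannot be told apart.

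The 3 laboratory values lay wholly on one side of the 3 wild values in 13 of the 32 genes. In 10 of them the wild mice were higher, against 14.1% of all tested genes, and in 3 the laboratory mice were higher, against 14.1% likewise. Apart from the 11 genes that passed the test these were Proz, higher in wild mice, and Kng1, higher in laboratory mice. In FPKM, which is not rescaled by each mouse's own distribution, 23 genes were higher in every wild mouse than in every laboratory mouse and 2 were higher in every laboratory mouse. The same pattern held for 43.7% and 12.1% of all tested genes. At the median of all tested genes the wild value was 1.38 times the laboratory value on the scale of log2(FPKM + 0.1), a shift of -0.47.

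**Figure D1:**
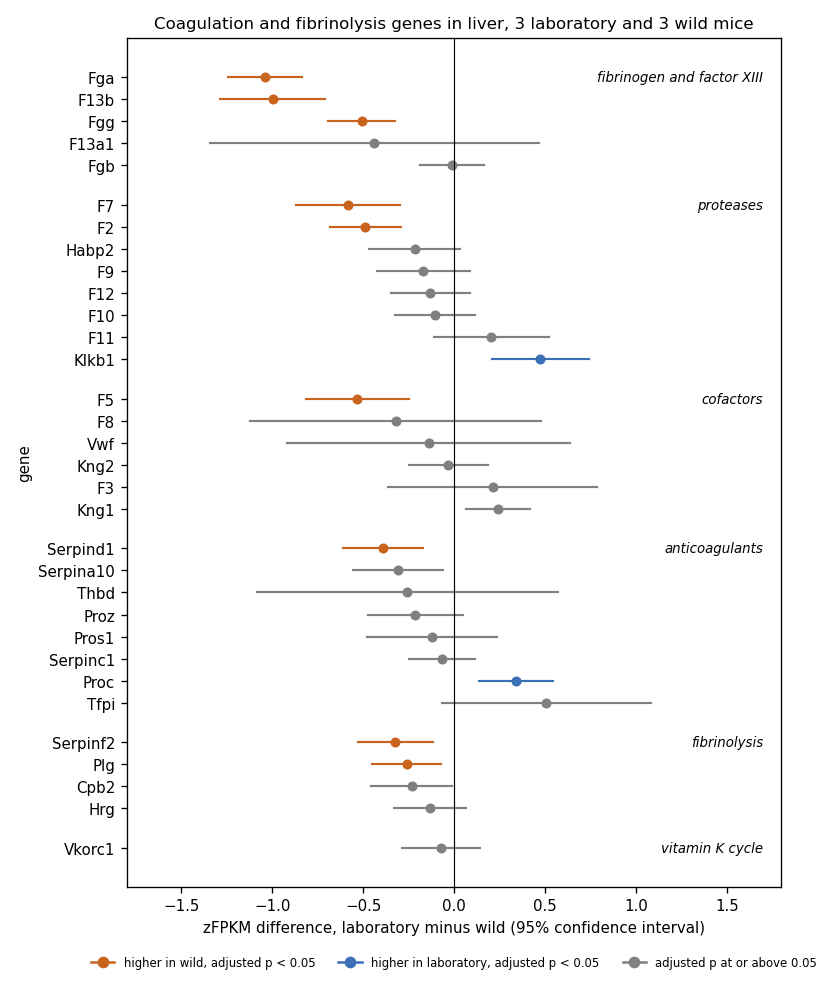
Difference in zFPKM (laboratory minus wild, x axis) for the 32 tested genes (y axis), grouped by role, with the limma estimate as a point and its 95% confidence interval, not adjusted for multiple testing, as a line (n = 3 mice per group). The 9 orange genes lie left of 0 (higher in wild mice), led by Fga and F13b near -1, and the 2 blue genes, Klkb1 and Proc, lie right of 0.

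The genes for the 3 fibrinogen chains lie side by side on chromosome 3 of GRCm38, Fgg from 83007724 to 83015056, Fga from 83026153 to 83033627 and Fgb, on the opposite strand, from 83042246 to 83049863. Because the chains come from 1 locus and are built into 1 protein in equal numbers, yet differed unequally between the groups, the 250 bases before each start are shown, from RefSeq on GRCm38.p6. Capitals mark 3 motifs of factors known at acute-phase and liver promoters, searched on both strands, namely the HNF1 half-site GTTAAT, the C/EBP site TTGCNNAA and the interleukin-6 response element core CTGGGA. The window of Fga is chr3:83025903-83026152 on the plus strand, that of Fgg is chr3:83007474-83007723 on the plus strand, and that of Fgb is chr3:83049864-83050113 on the minus strand.
Fga: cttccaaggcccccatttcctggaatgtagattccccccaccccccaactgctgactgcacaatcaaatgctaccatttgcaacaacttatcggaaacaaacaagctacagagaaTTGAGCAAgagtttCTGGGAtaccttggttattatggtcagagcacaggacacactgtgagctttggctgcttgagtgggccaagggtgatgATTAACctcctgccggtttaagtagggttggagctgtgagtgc
Fgg: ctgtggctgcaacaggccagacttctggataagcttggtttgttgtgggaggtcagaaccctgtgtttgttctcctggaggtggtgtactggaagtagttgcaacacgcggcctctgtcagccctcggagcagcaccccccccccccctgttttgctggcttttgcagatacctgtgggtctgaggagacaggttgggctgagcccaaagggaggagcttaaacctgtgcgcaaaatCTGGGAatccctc
Fgb: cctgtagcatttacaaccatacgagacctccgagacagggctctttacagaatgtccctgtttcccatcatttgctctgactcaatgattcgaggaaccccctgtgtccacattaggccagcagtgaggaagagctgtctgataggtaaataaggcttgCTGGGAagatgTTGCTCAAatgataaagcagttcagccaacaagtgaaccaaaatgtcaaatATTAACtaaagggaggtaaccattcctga
The windows of Fga and Fgb each held 1 match to each of the 3 motifs, with no match overlapping another. In Fga the C/EBP match began 135 bases before the start, the interleukin-6 core 121 bases and the HNF1 half-site 43 bases before it, and in Fgb the interleukin-6 core began 91 bases, the C/EBP match 80 bases and the HNF1 half-site 29 bases before it. The window of Fgg held the interleukin-6 core alone, 13 bases before the start. Such short letters are common, being found in 6.43% (HNF1 half-site), 9.56% (C/EBP) and 27.0% (interleukin-6 core) of 32851 promoter windows of the same length. A promoter was listed for 27 of the 33 genes, and the motifs were found in 5, 9 and 10 of these in that order. The windows are those of the reference assembly, and the sequence carried by the wild mice was not examined. The part of these motifs in the differences between the groups was not tested.

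Fga, the alpha chain of fibrinogen, had an FPKM of 84.8, 144 and 79.8 in the C57BL/6 mice and 1010, 1628 and 1417 in the wild mice. Every wild mouse was above every laboratory mouse, and the wild mean of 1351 ± 314 (SD, n = 3) was 13.1 times the laboratory mean of 103 ± 35.6. In zFPKM the groups differed by -1.04 (standard error 0.104, limma adjusted p = 5.49e-21), the most negative among the 32 genes. The standard errors, intervals and p-values of this fit follow limma's trend over all tested genes rather than each gene's own spread between mice. Very small p-values therefore do not measure that spread. For Fga the limma adjusted p was 0.0345 without the trend and 6.05e-05 without laboratory mouse 3.

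Fgg, the gamma chain, had an FPKM of 447, 662 and 297 in the C57BL/6 mice and 1654, 2452 and 2112 in the wild mice. The groups again did not overlap, and the zFPKM difference was -0.51 (standard error 0.0941, limma adjusted p = 2.87e-06). Fgb, the beta chain, was the highest of the chains, with an FPKM of 1435, 1701 and 980 in the C57BL/6 mice and 1902, 2730 and 2340 in the wild mice. In FPKM the lowest wild mouse stood just above the highest laboratory mouse, but in zFPKM the groups overlapped, with a difference of -0.01 (95% confidence interval -0.18 to 0.17, limma adjusted p = 0.964). The 3 chains therefore differed between the groups by unequal amounts.

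Ratios of FPKM within a mouse show this without any scaling between libraries; these pairs were chosen after their values were seen. The FPKM of Fga was 5.91%, 8.46% and 8.14% of that of Fgb in the C57BL/6 mice and 53.1%, 59.6% and 60.6% in the wild mice. The FPKM of Fgg was 31.1%, 39.0% and 30.3% of that of Fgb in the C57BL/6 mice and 87.0%, 89.8% and 90.2% in the wild mice. Fga was thus the scarcest chain in every mouse, and further below the others in every laboratory mouse than in any wild mouse. The log2 ratio of Fga to Fgb was -3.75 ± 0.284 (SD, n = 3) in C57BL/6 mice and -0.80 ± 0.104 in wild mice, and that of Fgg to Fgb was -1.59 ± 0.198 and -0.17 ± 0.0291. In both, all 3 mice of one group were on one side of the other group (two-sided exact permutation test over mice, p = 0.1, the lowest that 3 against 3 can reach; 0.117 after Benjamini-Hochberg adjustment over the 7 pairs computed).

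Factor XIII has a catalytic A subunit, F13a1, made by macrophages and platelets, and a carrier B subunit, F13b, made by hepatocytes. F13b lies on chromosome 1 from 139501547 to 139523758, and its FPKM was 6.48, 10.1 and 11.4 in the C57BL/6 mice and 101, 128 and 108 in the wild mice. The wild mean of 112 ± 14.2 (SD, n = 3) was 12.1 times the laboratory mean of 9.33 ± 2.54, with no overlap (zFPKM difference -0.998, standard error 0.147, limma adjusted p = 9.84e-10). F13b stood at 0.452% to 1.16% of the FPKM of Fgb in laboratory mice and at 4.61% to 5.31% in wild mice. F13a1 was the lowest of all the genes, listed at 0 in laboratory mice 1 and 3 and at 0.116 in laboratory mouse 2, and at 0.0225, 0.0942 and 0.175 in the wild mice. The zFPKM of F13a1 overlapped between the groups (difference -0.44, 95% confidence interval -1.34 to 0.47, limma adjusted p = 0.611). The summed FPKM of 9 macrophage markers was 64.5 to 103 in C57BL/6 mice and 31.2 to 243 in wild mice, with none of the 9 passing the test and none at 0 in a whole group, and that of the 3 usable of 8 platelet markers was 1.12 to 1.87 and 0.598 to 1.10, with 2 of the 3 higher in laboratory mice. Their part in the level of F13a1 was not tested.

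**Figure D2:**
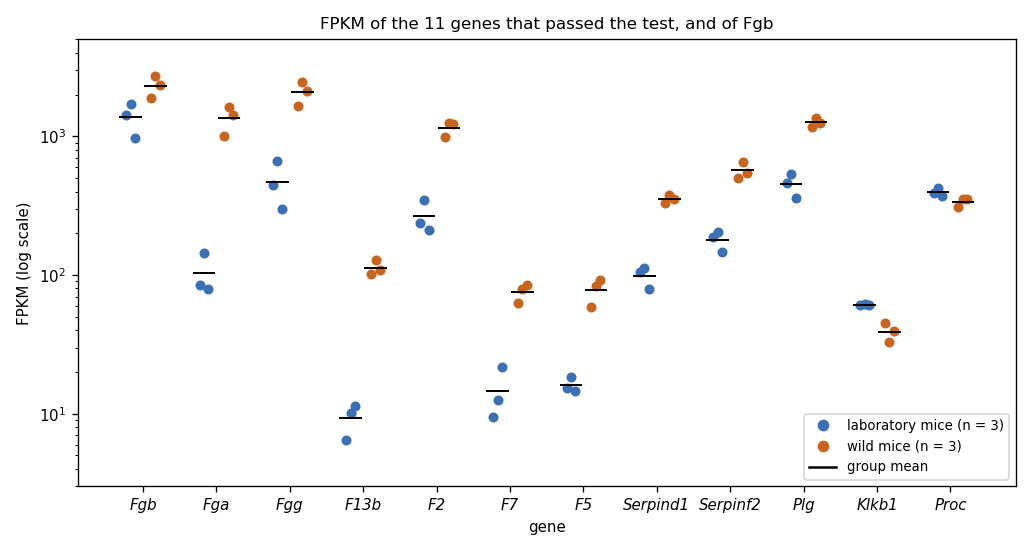
FPKM on a log axis (y) of Fgb and the 11 genes that passed the test (x), with each mouse as a point and the group mean as a line (n = 3 mice per group). In Fga, F13b and the other 7 genes that were higher in wild mice the orange points lie wholly above the blue ones, and in Klkb1 and Proc they lie wholly below.

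**Figure D3:**
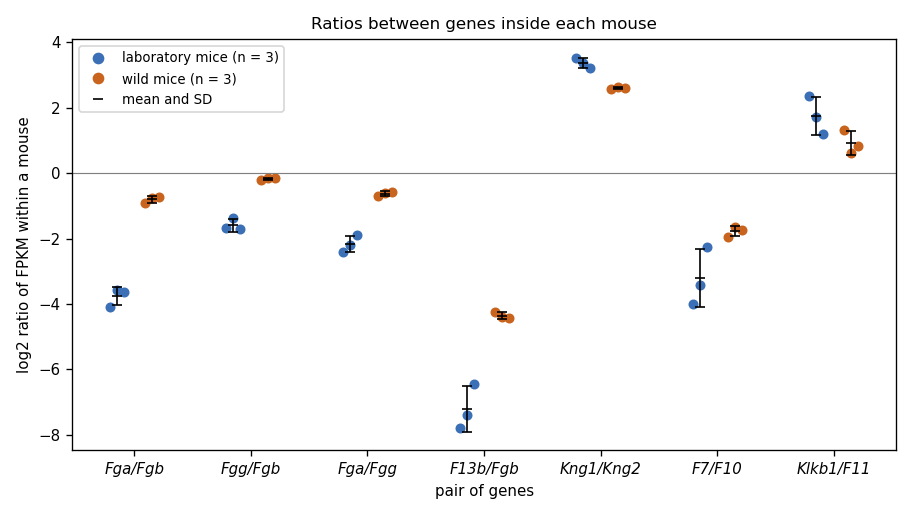
Log2 ratio of FPKM between a pair of genes in the same mouse (y axis) for 7 pairs (x axis), with each mouse as a point and the mean and SD in black (n = 3 mice per group). The ratio of Fga to Fgb lies between -4.08 and -3.56 in laboratory mice and between -0.91 and -0.72 in wild mice, while the ratio of Klkb1 to F11 overlaps between the groups.

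Among the 8 proteases 2 were higher in wild mice, 1 was higher in laboratory mice and 5 did not pass the test. F2, which encodes prothrombin and led them in level, had an FPKM of 237, 348 and 210 in the C57BL/6 mice and 985, 1248 and 1236 in the wild mice. Every wild mouse was above every laboratory mouse, with means of 1156 ± 148 and 265 ± 73.0 (SD, n = 3) and a zFPKM difference of -0.49 (standard error 0.0994, limma adjusted p = 2.94e-05).

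F7, the protease that starts the extrinsic pathway with tissue factor, had an FPKM of 9.44, 12.5 and 21.6 in the C57BL/6 mice and 63.2, 78.8 and 84.5 in the wild mice. The groups did not overlap, and the zFPKM difference was -0.58 (standard error 0.146, limma adjusted p = 0.00121, and 0.0641 without wild mouse 3). F7 lies on chromosome 8 from 13025506 to 13035809, followed by F10 from 13037308 to 13056676 and Proz from 13060584 to 13076026. F10, the protease that F7 activates, had a mean FPKM of 128 ± 23.9 in C57BL/6 mice and 258 ± 23.2 in wild mice and a zFPKM difference of -0.10 (95% confidence interval -0.33 to 0.12, limma adjusted p = 0.626). Within a mouse, F7 was at 6.30%, 9.45% and 21.1% of the FPKM of F10 in the C57BL/6 mice and at 26.1%, 32.0% and 29.7% in the wild mice. The log2 ratio was -3.21 ± 0.887 (SD, n = 3) in C57BL/6 and -1.78 ± 0.150 in wild mice, without overlap, though laboratory mouse 3 came close to the wild mice (two-sided exact permutation test over mice, p = 0.1, the lowest possible, and 0.117 adjusted over 7 ratios).

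Klkb1, plasma prekallikrein of the contact system, was among the few genes that were higher in laboratory mice, with an FPKM of 60.8, 61.6 and 60.7 in the C57BL/6 mice and 45.0, 32.9 and 39.4 in the wild mice. The laboratory mice were nearly equal to each other and all above the wild mice (zFPKM difference 0.48, standard error 0.136, limma adjusted p = 0.00626). This call was lost when laboratory mouse 1 or 2 was left out (adjusted p = 0.0911 and 0.0640). Klkb1 and F11, a closely related pair, are neighbours on chromosome 8, F11 from 45240659 to 45262055 and Klkb1 from 45266688 to 45294835. F11, the lowest of the proteases over all mice, had an FPKM of 11.8, 18.9 and 26.6 in the C57BL/6 mice and 17.9, 21.3 and 22.2 in the wild mice. These values overlapped (zFPKM difference 0.21, 95% confidence interval -0.11 to 0.52, limma adjusted p = 0.462), and the log2 ratio of Klkb1 to F11 overlapped too, at 1.75 ± 0.587 and 0.93 ± 0.361 (SD, n = 3; two-sided exact permutation test, p = 0.2, also after adjustment). The other proteases, F9 and F12 of the intrinsic pathway and Habp2, a plasma protease that can activate factor VII, had zFPKM differences of -0.22 to -0.13, with adjusted p of 0.286 to 0.503. In FPKM each of these 3 was higher in every wild mouse.

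Of the 6 cofactors and contact proteins 1 was higher in wild mice and 5 did not pass the test. F5, the cofactor of factor X, had an FPKM of 15.4, 18.4 and 14.7 in the C57BL/6 mice and 58.5, 84.0 and 92.3 in the wild mice. There was no overlap, and the zFPKM difference was -0.53 (standard error 0.145, limma adjusted p = 0.00336). The call was lost without wild mouse 2 (adjusted p = 0.0801) and without wild mouse 3 (adjusted p = 0.123). Kng1, which encodes high molecular weight kininogen, was the highest of the cofactors, with an FPKM of 1583, 1649 and 1418 in the C57BL/6 mice and 1206, 2125 and 1746 in the wild mice.

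The FPKM of Kng1 overlapped between the groups, whereas its zFPKM was 3.26, 3.25 and 3.33 in the C57BL/6 mice and 2.87, 3.12 and 3.12 in the wild mice, without overlap. The difference of 0.24 (standard error 0.0897) missed the threshold at a limma adjusted p of 0.0516, and on log2(FPKM + 0.1) its sign turned to -0.09, beside a shift of -0.47 over all tested genes. Kng2, its paralogue and neighbour on chromosome 16, had a mean FPKM of 150 ± 10.9 in C57BL/6 mice and 278 ± 69.9 in wild mice, with a zFPKM difference of -0.03 (95% confidence interval -0.25 to 0.19). The log2 ratio of Kng1 to Kng2 was 3.37 ± 0.154 (SD, n = 3) in C57BL/6 mice and 2.60 ± 0.0344 in wild mice, with no overlap (two-sided exact permutation test over mice, p = 0.1, the lowest possible, and 0.117 adjusted). Reads shared by these near-identical genes could have been split between them by the counting, so the level of each is uncertain.

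The other cofactors were scarce in liver. F3, tissue factor, had an FPKM of 0.985 to 2.17 in C57BL/6 mice and 1.09 to 2.20 in wild mice. F8, factor VIII, was the lowest cofactor on average, with an FPKM of 0.200, 0.157 and 0.351 in the C57BL/6 mice and 0.371, 1.50 and 0.652 in the wild mice. Vwf, von Willebrand factor, which carries factor VIII in plasma, had 0.352, 0.263 and 0.340 in the C57BL/6 mice and 0.328, 1.39 and 0.717 in the wild mice.

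Both F8 and Vwf were highest in wild mouse 2, and so was Thbd, thrombomodulin, the endothelial receptor of thrombin and the lowest of the anticoagulants, with an FPKM of 0.147, 0.387 and 0.145 in the C57BL/6 mice and 0.199, 1.06 and 0.772 in the wild mice. None of the 3 passed the test, with zFPKM differences of -0.32, -0.14 and -0.26 and adjusted p of 0.688, 0.874 and 0.765 in the order F8, Vwf and Thbd. Their confidence intervals were wide, from -1.12 to 0.48 for F8, from -0.92 to 0.64 for Vwf and from -1.09 to 0.57 for Thbd. The summed FPKM of 10 endothelial markers was 40.3 to 62.0 in C57BL/6 mice and 28.3, 87.1 and 49.3 in wild mice 1, 2 and 3, so wild mouse 2 was the highest there as well and wild mouse 1 the lowest. None of the 10 markers was at 0 in a whole group and none passed the test. In FPKM wild mouse 2 was the highest of all mice in 19 of the 32 coagulation genes, against 18.1% of all tested genes. A peak in that mouse was therefore not particular to F8, Vwf and Thbd. The part of endothelial content in the levels of these 3 genes was not tested.

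**Figure D4:**
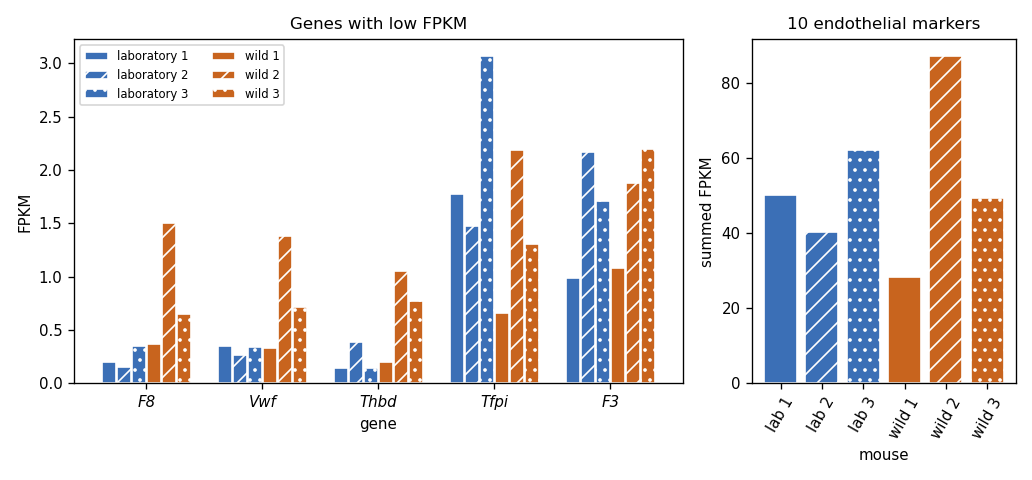
Left, FPKM (y axis) of F8, Vwf, Thbd, Tfpi and F3 (x axis) with a bar for each mouse; right, summed FPKM of 10 endothelial markers (y axis) in each mouse (x axis). F8, Vwf, Thbd and the marker sum are highest in wild mouse 2, while Tfpi is highest in laboratory mouse 3.

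Among the 8 anticoagulants 1 was higher in wild mice, 1 was higher in laboratory mice and 6 did not pass the test. Serpind1, heparin cofactor II, an inhibitor of thrombin, had an FPKM of 104, 113 and 79.1 in the C57BL/6 mice and 332, 376 and 351 in the wild mice. The groups did not overlap, and the zFPKM difference was -0.39 (standard error 0.113, limma adjusted p = 0.00643, 0.0801 without wild mouse 2 and 0.0880 without wild mouse 3). Proc, which encodes protein C, the protease that inactivates factors V and VIII, had an FPKM of 390, 426 and 369 in the C57BL/6 mice and 308, 354 and 352 in the wild mice.

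For Proc every laboratory mouse was above every wild mouse, although the means of 395 ± 28.9 and 338 ± 25.7 (SD, n = 3) were close, and the zFPKM difference was 0.34 (standard error 0.104, limma adjusted p = 0.0119). The call of Proc was lost without laboratory mouse 1 (adjusted p = 0.0813), laboratory mouse 2 (0.0665) or wild mouse 1 (0.0673). Pros1, the cofactor of protein C, had a mean FPKM of 7.30 ± 0.959 in C57BL/6 mice and 15.5 ± 2.79 in wild mice and a zFPKM difference of -0.12 (limma adjusted p = 0.742). Serpinc1, antithrombin, the highest of the anticoagulants, had an FPKM of 866, 977 and 720 in the C57BL/6 mice and 1346, 1714 and 1875 in the wild mice. Its zFPKM difference was -0.06 (95% confidence interval -0.25 to 0.12, limma adjusted p = 0.728), although its wild mean in FPKM was 1.93 times its laboratory mean.

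Proz, protein Z, and Serpina10, the inhibitor that protein Z brings to factor Xa, did not pass the test. Proz had an FPKM of 29.3, 39.6 and 40.0 in the C57BL/6 mice and 102, 100 and 75.5 in the wild mice. Its zFPKM did not overlap between the groups, and the difference was -0.21 (limma adjusted p = 0.319). Serpina10 had a mean FPKM of 46.5 ± 6.02 in C57BL/6 mice and 145 ± 27.5 in wild mice, with a zFPKM difference of -0.31 (limma adjusted p = 0.0818). Tfpi, the inhibitor of the tissue factor pathway, had an FPKM of 1.47 to 3.07 in C57BL/6 mice and 0.663 to 2.19 in wild mice and a zFPKM difference of 0.51 (95% confidence interval -0.07 to 1.08, limma adjusted p = 0.272).

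All 4 genes of the plasmin system had a negative zFPKM difference, as had 26 of the 32 coagulation genes as a whole. Of the 4 genes, 2 passed the test. Plg, plasminogen, the precursor of plasmin, had an FPKM of 458, 537 and 360 in the C57BL/6 mice and 1162, 1366 and 1249 in the wild mice. Serpinf2, alpha 2-antiplasmin, the chief inhibitor of plasmin, had 188, 204 and 146 in the C57BL/6 mice and 504, 658 and 541 in the wild mice. Neither gene overlapped between the groups, and the zFPKM differences were -0.26 (standard error 0.0962, limma adjusted p = 0.0474) for Plg and -0.32 (standard error 0.106, limma adjusted p = 0.0201) for Serpinf2. The call of Plg was close to the threshold and was lost in each of the 6 fits that left out 1 mouse (adjusted p = 0.0575 to 0.229). The call of Serpinf2 was lost without laboratory mouse 3 (adjusted p = 0.0522), wild mouse 2 (0.179) or wild mouse 3 (0.137).

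Cpb2, the carboxypeptidase that slows fibrinolysis by removing plasminogen-binding lysines from fibrin, was the lowest of the plasmin system, with an FPKM of 114, 139 and 77.6 in the C57BL/6 mice and 251, 322 and 274 in the wild mice. The groups did not overlap in FPKM but did in zFPKM, where the difference was -0.23 (limma adjusted p = 0.170). Hrg, histidine-rich glycoprotein, which binds plasminogen and heparin, had a mean FPKM of 316 ± 77.4 in C57BL/6 mice and 669 ± 66.0 in wild mice and a zFPKM difference of -0.13 (limma adjusted p = 0.453).

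In the vitamin K cycle Ggcx carboxylates the clotting factors and Vkorc1, the target of warfarin, regenerates the vitamin. Vkorc1 had an FPKM of 210, 185 and 142 in the C57BL/6 mice and 315, 323 and 372 in the wild mice, with a zFPKM difference of -0.07 (95% confidence interval -0.28 to 0.14, limma adjusted p = 0.749). Ggcx was listed on chromosome 6 from 72414279 to 72433359 and again on an alternate sequence of the assembly, and reads could be shared between these near-identical copies, so the level of each copy is uncertain. The entry on chromosome 6 stood at an FPKM of 2.47 and 2.86 for laboratory mice 2 and 3, with no entry for laboratory mouse 1, and of 12.2, 11.2 and 9.62 in the wild mice.

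The entry of Ggcx on the alternate sequence had 0.827, 1.41 and 2.39 in the C57BL/6 mice and 11.6, 10.7 and 8.95 in the wild mice. Both entries were higher in every wild mouse than in every laboratory mouse with a value. When the alternate entry was added to the fit the zFPKM difference was -0.74 (standard error 0.231, limma adjusted p = 0.0137), and when repeated names were summed, with laboratory mouse 1 represented by its single entry, it was -0.79 (standard error 0.198, limma adjusted p = 0.00123). The first of these fits was added after the values were seen.

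Of 39 other genes of coagulation, fibrinolysis and vitamin K metabolism 35 were tested, of which 4 were higher in wild mice, 1 was higher in laboratory mice and 30 did not pass the test. The share that passed, 14.3%, is at the background of 14.5% over all tested genes. Their median zFPKM difference was -0.06, beside 0.005 over all tested genes. Mcfd2, Nqo1, Pzp and Serpina1a also passed in all 6 fits that left out 1 mouse.

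Mcfd2, a part of the receptor that exports factors V and VIII from the endoplasmic reticulum, had an FPKM of 24.0, 40.0 and 33.9 in the C57BL/6 mice and 132, 163 and 168 in the wild mice (zFPKM difference -0.53, limma adjusted p = 8.17e-04). Lman1, its partner in that receptor, had a zFPKM difference of -0.17 (limma adjusted p = 0.495). Nqo1, a quinone reductase that can reduce vitamin K, had an FPKM of 2.13, 1.40 and 2.77 in the C57BL/6 mice and 15.1, 24.8 and 23.1 in the wild mice (zFPKM difference -0.90, limma adjusted p = 2.38e-04). Mcfd2 and Nqo1 were higher in every wild mouse.

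Pzp, a broad protease inhibitor of the alpha 2-macroglobulin family, had an FPKM of 223, 286 and 191 in the C57BL/6 mice and 856, 910 and 1059 in the wild mice (zFPKM difference -0.45, limma adjusted p = 2.27e-04). Serpina1a, an alpha 1-antitrypsin gene, was the one gene of this list that was higher in laboratory mice, at 1596, 1637 and 1110 against 1153, 975 and 787 (zFPKM difference 0.45, limma adjusted p = 2.87e-05). Its FPKM overlapped between the groups, and its reads can be shared with near-identical copies of the gene, so its level is uncertain.

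Since the fibrinogen chains and several serpins belong to the acute-phase proteins, 13 further acute-phase genes are given beside them. Of these, 6 were higher in wild mice, against 7.28% of all tested genes, and 3 were higher in laboratory mice, against 7.17%. The median zFPKM difference was -0.21. Their summed FPKM was 3872 to 8783 in C57BL/6 mice and 6217 to 8205 in wild mice, which overlapped. The sum came mostly from Hp, Hpx and Orm1, so it does not stand for the list as a whole. The part of these acute-phase genes in the levels of the fibrinogen chains was not tested. Blood markers moved with the groups too, as 6 of 7 erythrocyte markers were higher in laboratory mice, with a summed FPKM of 1340 to 5135 against 724 to 1581, and their part in the results was not tested either.

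Within the wild group both females were above the male in FPKM in 29 of the 32 genes, against 42.6% of all tested genes, and both were below it in Klkb1 and Proz. In zFPKM both females were above the male in all 32 genes, against 83.1% of all tested genes. With 1 wild male there is no test of sex inside the group. With sex as a term in the fit, the difference rests on 1 wild male against the 3 laboratory males, and the lone male is assumed to vary like the other mice. Under that assumption Fga (-0.89, limma adjusted p = 0.00516) and F13b (-0.84, adjusted p = 0.0125) were past the threshold on the wild side, against 1.34% of all tested genes, and Proc (0.45, adjusted p = 0.0397) and Kng1 (0.40, adjusted p = 0.0376) on the laboratory side, against 6.03%. Laboratory mouse 3 was the lowest laboratory mouse in zFPKM in 28 of the 32 genes, against 83.6% of all tested genes. Without it 9 genes passed the test, against 13.7% of all tested genes, and 7 of them were higher in wild mice, against 4.91%. Without wild mouse 1 also 9 passed, against 11.4%, of which 8 were higher in wild mice, against 7.10%.

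The number of genes that passed differed between scales. On log2(FPKM + 0.1), without the rescaling by each mouse's distribution, 21 of the 32 genes were higher in wild mice, against 38.0% of all tested genes, and 1, Klkb1, was higher in laboratory mice, against 8.19%. The median difference over the 32 genes was -1.12 on this scale, which is -0.65 relative to the shift of all tested genes. With each mouse centred on its median on the same scale, a setting added after the data were seen, 10 genes were higher in wild mice, against 18.6% of all tested genes, and 3, Klkb1, Proc and Tfpi, were higher in laboratory mice, against 28.6%. With each mouse's zFPKM centred on its median 6 genes passed, against 28.3% of all tested genes, and 4 of them were higher in wild mice, against 13.9%, so on that scale the counts did not exceed the background. The fit without the dependence on transcript length, named below, gave 6 of the 32 genes too, against 4957 of 16504 tested genes. Of these 6, 4 were higher in wild mice, against 2811 of the 16504, so the counts did not exceed the background there either. No gene that passed the test on zFPKM turned its direction under any of the 18 settings tried. Fga and F13b passed the test in 17 of the 18, all but the fit without a filter on low values. Fga, F13b, Fgg and F2 passed in all 6 fits that left out 1 mouse, but Fgg and F2 did not pass with zFPKM centred on the median (limma adjusted p = 0.246 and 0.180), in a fit added later that took out each mouse's dependence of zFPKM on transcript length (0.131 and 0.112), with sex as a term (0.0964 and 0.0872), without limma's trend (0.192 and 0.191) or without a filter on low values (0.450 for both).

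**Figure D5:**
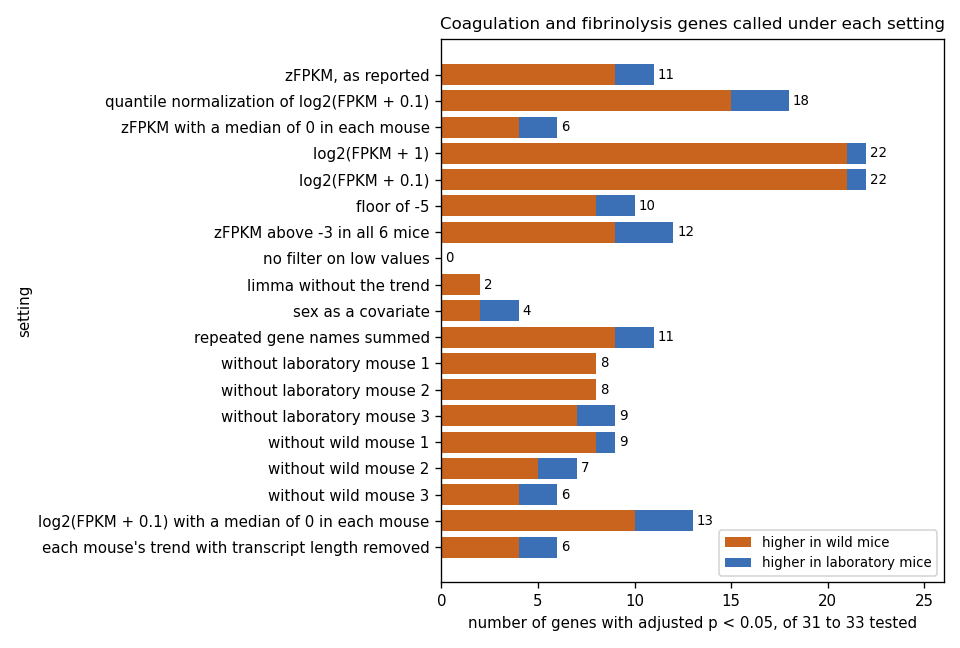
Number of genes with a limma adjusted p below 0.05 (x axis) under each of 19 settings (y axis), with orange for genes higher in wild mice and blue for genes higher in laboratory mice. The count is 11 on zFPKM, 22 on either log2 scale without centring and 0 without a filter on low values.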

How the data were processed

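Liver RNA-Seq of 3 laboratory and 3 wild mice was used. Reads were mapped by the authors with kalign to the masked genome, FPKM came from the Tuxedo pipeline, and deposited zFPKM is their score of log2 FPKM, from the R package zFPKM. The build, per the labels, is GRCm38.p6, and no tool versions were stated for the RNA-Seq steps. No counts were used, so depth is unknown and the authors' edgeR test was not run. The members and gene lists were chosen with earlier results of these data known. Of 47256 names that each mouse listed once, 13 whose estimate was marked as failed for depth in any mouse were left out. zFPKM below -3 was set to -3, genes above -3 in at least 3 of 6 mice were kept, and limma 3.58.1 (trend, R 4.3.3) was fitted over 18628 genes with Benjamini-Hochberg adjustment at 0.05. The fit was tested on simulated data. Values in every mouse are given for genes that passed the test or did not overlap and for the highest and lowest of each role, and other pathway genes are named when they passed, at most 5 per direction; 1 of these, and 1 marker, is not reported here. Ratios used exact permutation tests (scipy 1.17.1). Alternatives were other scales, pseudocounts of 0.1 and 1, floors, filters, no trend, sex, summed repeated names, each mouse left out and, added later, a centred log2 scale and removal of the trend with transcript length.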

Additional observations from a re-analysis of the deposited data

How the results depend on the processing

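Counts of genes that passed the test moved with the scale and the variance model. Of the coagulation genes 11 passed as reported, 18 after quantile normalization, 22 on log2(FPKM + 0.1) or log2(FPKM + 1), 13 on the centred log2 scale, 6 with a zFPKM median of 0 in each mouse, 6 with the trend with transcript length removed, 4 with sex as a covariate, 2 (Fga and F13b) without limma's trend and 0 without a filter on low values. At an unadjusted p below 0.05 limma gave 10, 7 and 10 genes with the sex covariate, without the trend and without the filter. No share of all tested genes at this looser threshold is given here. These unadjusted counts, and those of the other pathway genes below, therefore have no background to be read against. In the order of the adjusted counts above, all tested genes gave 2692 as reported, 7298, 8598 or 8252, 8805, 5278, 4957, 1373, 795 and 23. These are out of 18628 genes, except 16504 with the length trend removed and 47243 without a filter. The share of coagulation genes that passed was below that of all tested genes on the centred log2 scale, with a zFPKM median of 0 and with the length trend removed. On the centred log2 scale 10 of them were higher in wild mice, against 18.6% of all tested genes. The other pathway genes gave 5 as reported, 9, 13 on both log2 scales (all higher in wild mice) and 13 on the centred one (4 higher in wild mice), and 0 with sex as a covariate, without the trend or without the filter, where 7, 6 and 4 had an unadjusted p below 0.05. Genes without overlap numbered 13 as reported, 22 after quantile normalization, 25 on both log2 scales and 20 on the centred one. Over all tested genes the share as reported was 14.1% in each direction. In FPKM, which ranks the mice as both log2 scales do, it was 43.7% with wild mice higher and 12.1% with laboratory mice higher. For the other settings and the fits that left out 1 mouse no such share is given, so those counts have no background to be read against. With 1 mouse left out the counts ran from 6 to 9 coagulation genes (6 without wild mouse 3, 7 without wild mouse 2), from 1421 to 2557 over all tested genes, from 4 to 5 other pathway genes and from 13 to 23 genes without overlap (23 without wild mouse 1, when 2 wild mice remain). The cause of these moves was not tested, except that the fit without a filter tested 47243 genes. Among single genes 440 values kept their direction and side of the threshold, 64 lost the call, 38 gained it and 34 changed sign without a call on either side; no called direction reversed. No paired analysis was done because each mouse is a separate animal with its own registration number, and the labels give no pairing between the groups. The unknown depth and 3 mice a group limit the genes under about 1 FPKM most. F8, Vwf, Thbd and F13a1 had the widest intervals there, but their width follows limma's trend with mean level rather than the genes' own spread.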
